A study of Mus musculus with 27 samples.

Results

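The stefins, or type 1 cystatins, on the array were followed through mouse esophageal development and in mice lacking Nrf2 or Keap1. The 5 genes described are Stfa1, Stfa2, Stfa3, Csta1 and Cstdc5, out of 27764 genes on the array, and 6 of 41174 probes measure them. They were chosen by their measured levels in these same arrays, so their values are given as a description, with no test. A probe was taken where the scanner annotation named a member, or where its RefSeq accession now belongs to one: both Csta1 probes are named Csta there, and the Cstdc5 probe BC100530.

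Stefins are small inhibitors of papain-like cysteine proteases, above all the lysosomal cathepsins, and most lack a secretion signal and act inside the cell. Cystatin A is abundant in stratified squamous epithelia, where it is a precursor of the cornified cell envelope, the cross-linked protein shell of the outermost cells. The mouse carries a cluster of stefin A copies on chromosome 16 where humans have a single gene, and the mouse genes are also transcribed in neutrophils and other myeloid cells.

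RNA from 27 esophageal samples was hybridised to 2-colour Agilent arrays, 3 per group in 9 groups, each labelled with Cy5 against a common Cy3-labelled reference RNA pooled from mouse cell lines. Wild-type C57BL/6J mice gave whole esophagi at embryonic days 11.5 and 15.5, at birth (P0) and at postnatal day 7 (P7), and esophageal epithelium as adults of 8 weeks. Nrf2-/-, Keap1-/- and Nrf2-/-Keap1-/- mice on a C57BL background gave whole esophagi at P7, and Nrf2-/- mice also adult epithelium. No adult group lacking Keap1 was analysed here, so the adult comparison concerns Nrf2 alone. The 3 samples of a group were labelled biological replicates, and per the study's methods each was a separate esophagus. Replicate numbers follow the sample titles, and the descriptions of some E15.5 and P7 samples give other numbers. Values are log2 ratios of Cy5 to Cy3, in which 1 unit is a doubling. In whole tissue, fewer cells of a type and less RNA per cell cannot be told apart.

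The 6 probes are shown because they set which gene each value belongs to. All 6 lie on chromosome 16 of build mm9. The Stfa1 probe is at chr16:36285323-36285382 on the plus strand. The others are on the minus strand: Stfa2 at chr16:36405290-36408367 across an intron, Stfa3 at chr16:36450693-36450752, Csta1 at chr16:36122294-36122353 (A_51_P384894) and chr16:36125099-36125158 (A_52_P686716), and Cstdc5 at chr16:36359525-36359584. Capitals mark the 45 bases that the Csta1 probe A_51_P384894 shares with the Cstdc5 probe, and 54 of the 60 bases of that Csta1 probe are printed:
Stfa1 A_51_P132185: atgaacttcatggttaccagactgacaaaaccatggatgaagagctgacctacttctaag
Stfa2 A_51_P135944: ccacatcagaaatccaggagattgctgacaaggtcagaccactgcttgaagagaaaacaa
Stfa3 A_51_P504815: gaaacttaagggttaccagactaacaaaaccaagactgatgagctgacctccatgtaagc
Csta1 A_51_P384894: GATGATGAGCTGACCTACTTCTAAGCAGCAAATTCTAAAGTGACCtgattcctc
Csta1 A_52_P686716: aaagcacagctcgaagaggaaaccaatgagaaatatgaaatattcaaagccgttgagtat
Cstdc5 A_52_P487686: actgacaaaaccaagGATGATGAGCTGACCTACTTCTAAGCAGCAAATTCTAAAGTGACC

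With 45 of 60 bases in common, A_51_P384894 and the Cstdc5 probe may each bind the other gene's transcripts, and their values are uncertain as to gene. The Stfa1 probe shared 19 bases with each of them, and the annotation lists the RefSeq transcript of the Cstdc5 probe for all 3 of these probes. Between any other 2 of the 6 probes the longest shared run was 14 bases. In RefSeq (GRCm38.p6) 11 stefin A genes lie in a row on chromosome 16, in the order Csta1, Stfa2l1, Cstdc4, Csta3, Csta2, Stfa1, Cstdc3, Cstdc6, Cstdc5, Stfa2 and Stfa3. An older annotation in some of the files named 3 of the 6 probes Stfa1, through an accession that now belongs to Cstdc6, so signal from unlisted copies cannot be told apart from that of the named gene.

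The promoters of Stfa1 and Cstdc5 are shown because these genes had the largest rise at birth and the largest differences in Keap1-/- of the 5. Both are RefSeq sequences of GRCm38.p6, 280 bases long and ending 30 bases into the gene: Stfa1 at chr16:36276898-36277177 on the plus strand and Cstdc5 at chr16:36367541-36367820 on the minus strand. Capitals mark matches to TGANNNNGC, the core of the antioxidant response element bound by Nrf2 with small Maf proteins, all of them on the opposite strand:
Stfa1 promoter: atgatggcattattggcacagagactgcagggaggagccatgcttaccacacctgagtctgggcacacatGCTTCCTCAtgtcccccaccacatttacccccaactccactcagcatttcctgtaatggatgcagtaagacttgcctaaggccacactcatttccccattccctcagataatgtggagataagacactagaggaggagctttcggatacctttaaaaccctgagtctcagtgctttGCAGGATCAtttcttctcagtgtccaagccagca
Cstdc5 promoter: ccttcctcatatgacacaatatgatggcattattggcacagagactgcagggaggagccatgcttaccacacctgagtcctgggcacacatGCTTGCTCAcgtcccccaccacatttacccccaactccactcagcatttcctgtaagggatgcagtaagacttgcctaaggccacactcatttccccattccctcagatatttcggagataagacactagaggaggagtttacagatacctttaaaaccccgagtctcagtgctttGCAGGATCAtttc

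The 2 promoters were identical at 222 of 279 aligned bases (79.6%), with an unbroken run of 59 bases. Counting the first base of the gene as 1 and the base before it as -1, the matches lay at -180 to -172 and -4 to 5 in Stfa1, and at -159 to -151 and 18 to 26 in Cstdc5. Stfa2 had 1 match, at -4 to 5, and no match was found in the windows of Stfa3 and Csta1. Of 32851 RefSeq promoters of 300 bases, 41.3% held at least 1 match on either strand. TGANTCA, the AP-1 motif, was found in Stfa3 alone among the 5, at 30 to 36, and in 7.81% of all promoters. These matches are descriptions of letters and not binding sites.

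Median signals ran from 80.6 to 216 in Cy5 and from 108 to 364 in Cy3, and 58.3% to 68.7% of probes were well above background in Cy5. Nfe2l2, which encodes Nrf2, fell in every Nrf2-/- group, by 3.63 at P7 (SE 0.13, limma, Benjamini-Hochberg adjusted p = 2.35e-07), by 3.86 in Nrf2-/-Keap1-/- (adjusted p = 1.46e-07) and by 4.30 in adults (SE 0.23, adjusted p = 0.00053). Array by array, Nfe2l2 stood at -3.92, -3.92 and -3.82 in Nrf2-/- at P7 against -0.23, 0 and -0.55 in wild-type, and 1 of its 3 probes did not separate the groups. The single Keap1 probe read -0.26, 0.22 and 0.64 in Keap1-/- and -0.50, -0.32 and -0.19 in Nrf2-/-Keap1-/-, against 0.54, 1.00 and 0.42 in wild-type, and passed the test in neither (adjusted p = 0.144 and 0.079). Whether it lies in the deleted part of the gene is not given in the sources used here. The 12 listed Nrf2 targets all rose in Keap1-/-, led by Gclc (6.04), Gstm1 (5.97), Slc7a11 (5.71) and Akr1b8 (5.55), and none was called in Nrf2-/- or Nrf2-/-Keap1-/- at P7.

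Among the embryonic arrays, E11.5 replicate 3 and E15.5 replicate 1 stood nearer to the other age than to their own. The mean of the 5 members was 0.08, 1.00 and 2.19 on the E11.5 arrays and -0.02, 1.84 and 2.08 on the E15.5 arrays. With all arrays limma called 0 of 19459 genes between these ages, with 316 at an unadjusted p under 0.05. Without those 2 arrays it called 2655. The mean differences that involve embryos are therefore also given without them. Whether the labels of the 2 arrays were exchanged was not tested.

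Epithelial identity was checked on marker lists. Of 9 squamous markers, all were well above background on every postnatal array, and 7 of 9 on every E11.5 array, where their mean ran from 1.59 to 3.81. Neutrophil elastase (Elane) was above background in no group shown here. Of 11 defining neutrophil and leukocyte genes on the array, 6 were above background on all 3 arrays at P0 and 3 on all 3 in adults, where Ngp, Camp, Prtn3, Csf3r and Mmp8 were not above it on any. The mean level of these 11 genes ran from -0.12 to 0.06 at E15.5, 0.74 to 1.06 at P0 and 0.61 to 1.6 at P7. In adults, whose samples were epithelium and not whole esophagus, it ran from -0.17 to -0.04. At P0 2 of the 8 tested rose, and their part in the members' rise was not tested. Of 5 neutrophil genes that squamous cells also express, none was called at P0 and 1 of 4 rose in Keap1-/-. Of 7 muscle markers 2 rose from E15.5 to P0 (median difference 1.6) and 3 from E11.5 to P7 (median 2.67), and their part in the members' rise was not tested either. Of the airway and lung markers 1 of 2 tested rose at P0, and of the red cell markers none did.

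All 5 genes were lowest in the embryo and far above the reference from birth onward. Stfa1 read 0.27, 1.51 and 2.25 at E11.5 and -0.26, 1.67 and 2.31 at E15.5. It then read 8.36, 8.45 and 8.01 at P0, 8.05, 9.33 and 8.01 at P7, and 9.0, 9.61 and 8.65 in adults. The embryonic arrays of Stfa1, a stefin A copy and like the others a cathepsin inhibitor, all lay below every later array. Its Cy5 spot was well above background on 2 of 3 arrays at each embryonic age.

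Cstdc5, a cystatin-domain copy of the same cluster, had the widest span, from a group mean of 1.85 to one of 9.85. It read -0.05, 2.18 and 3.41 at E11.5, 0.08, 3.1 and 3.06 at E15.5, and 9.24, 9.32 and 9.01 at P0. At P7 it read 9.55, 10.17 and 9.69, and in adults 9.76, 10.15 and 9.64. The P7 and adult arrays overlapped, and all 3 P7 arrays stood above all 3 P0 arrays.

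Csta1, the mouse cystatin A gene at the other end of the cluster, followed the same course. It read -0.04, 1.24 and 2.15 at E11.5 and 0.10, 1.96 and 2.07 at E15.5. It read 7.26, 7.17 and 6.98 at P0, 7.35, 8.37 and 7.38 at P7, and 7.79, 8.18 and 7.31 in adults. In the mean of its probes the P7 arrays were again above the P0 arrays and overlapped the adult ones.

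Stfa3 read no higher on average at P7 than at P0, and it alone of the members had every adult array above every P7 array. Its levels were 0.20, 0.29 and 2.65 at E11.5, 0, 2.16 and 2.52 at E15.5, 7.30, 6.92 and 6.35 at P0, and 6.10, 7.05 and 6.14 at P7. In adults it read 8.33, 8.66 and 7.62, all above P7.

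Stfa2 had the smallest change of the 5. Its Cy5 signal was not well above background on any embryonic array, where the ratios ran from -0.22 to 0.50. It read 3.39, 3.56 and 3.25 at P0, 2.83, 4.56 and 1.93 at P7, and 3.95, 4.93 and 4.24 in adults. The P7 replicates of Stfa2 spread over more than 2 units (SD 1.34), and the same P7 array, replicate 2, was the highest of the 3 for each of the 5 genes.

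**Figure D1:**
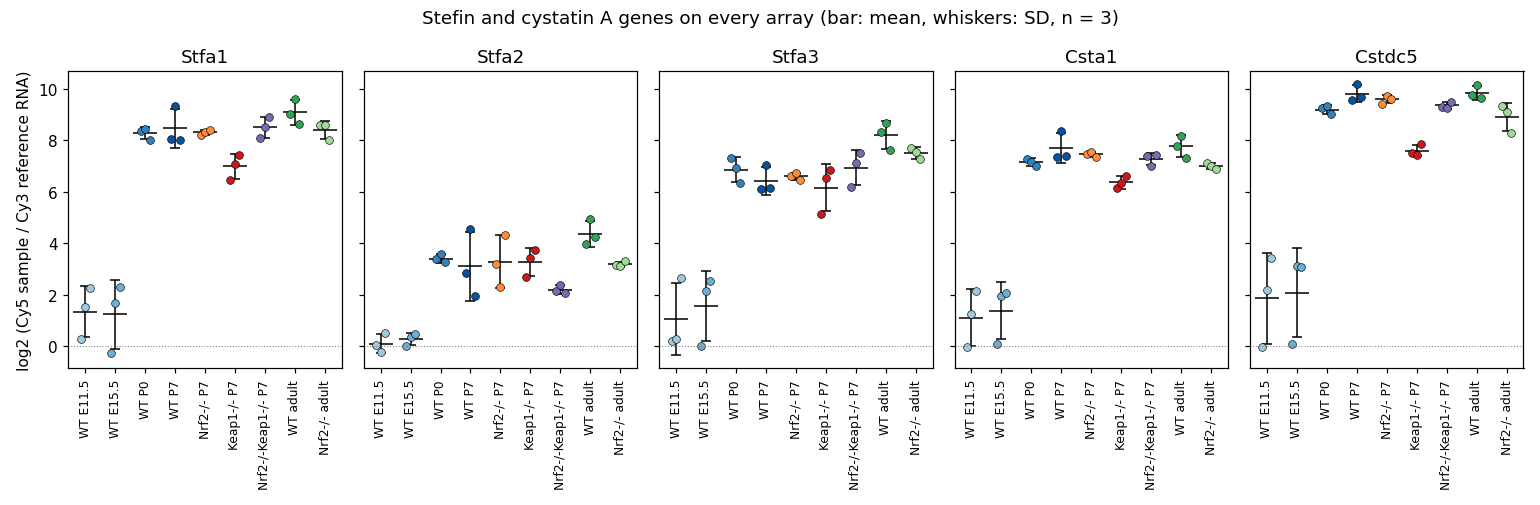
Log2 ratio of Cy5 (sample) to Cy3 (reference RNA) of the 5 genes on all 27 arrays, grouped by genotype and age (WT, wild-type), with 1 point per array, a bar at the group mean and whiskers of 1 SD (n = 3). Both embryonic groups lie lowest in every panel, with Cstdc5 at means of 1.85 and 2.08 against 9.19 at P0, and the red Keap1-/- points sit below the other P7 points for Stfa1, Csta1 and Cstdc5.

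Which step of development carried the rise was asked next. It fell between E15.5 and P0. Cstdc5 was 7.11 higher at P0 than at E15.5 (SE 0.89, 138-fold). Stfa1 was 7.03 higher (SE 0.66), where at E15.5 its Cy5 spot was well above background on 2 of 3 arrays and its Cy3 spot on none. Csta1 was 5.76 higher (SE 0.60), Stfa3 5.30 higher (SE 0.74) and Stfa2 3.13 higher (SE 0.51). For Stfa2, which was below background in the embryo, the rise was at least 8.63-fold. In 5 of 5 members all P0 arrays stood above all E15.5 arrays, which held for 22.9% of all genes, and since the members were chosen on these levels nothing is read from the count. The members' median difference was 5.76, that of all genes -0.01.

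The rise was also seen in the Cy5 channel alone, where the 6 probes were 3.15 to 8.14 higher at P0 than at E15.5 on the log2 scale, every P0 array above every E15.5 array. Cy3 was higher on all P0 arrays for 3 of the 6 probes, by up to 2.40. The mean of the 5 differences was 5.67, and 5.01 without E11.5 replicate 3 and E15.5 replicate 1. Without these arrays Stfa1 was 6.28 higher, Cstdc5 6.11, Csta1 5.12, Stfa3 4.52 and Stfa2 3.0, so the order of Stfa1 and Cstdc5 turned. From the deposited ratios the Stfa1 difference was 6.02.

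No member separated E15.5 from E11.5, where the differences ran from -0.10 for Stfa1 to 0.51 for Stfa3. All 5 members overlapped, while 1.8% of genes were higher and 1.92% lower on all E15.5 arrays. Without the 2 embryonic arrays named above, the mean difference was 1.42 rather than 0.21, with 0.5 for Stfa2 and 2.09 for Stfa3 at the ends, and all remaining E15.5 arrays stood above the remaining E11.5 arrays. Those 2 arrays were doubted for levels that include the members', so nothing is read from it. The slide that held both ages held all 3 E11.5 arrays and E15.5 replicate 1, and with them both doubted arrays. On it the mean difference was -1.11.

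After birth the changes were small. Between P0 and P7, Csta1 was 0.56 higher (SE 0.60) and Cstdc5 0.61 higher (SE 0.89), with all P7 arrays above all P0 arrays in these 2 of 5 members and in 14.4% of genes. For Csta1 the probe that may also bind Cstdc5 transcripts, A_51_P384894, separated (0.70, SE 0.32). The other, A_52_P686716, overlapped (0.43, SE 0.40). Stfa1, Stfa2 and Stfa3 differed by 0.19, -0.29 and -0.43 and overlapped. From E11.5 to P7, across both steps, all 5 were higher on every array, by 3.00 (Stfa2, SE 0.51, at least 7.18-fold) to 7.96 (Cstdc5, SE 0.89, 248-fold), which held for 21.8% of genes. Their mean difference was 6.01, and 6.56 without E11.5 replicate 3.

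Between P7 and adulthood Stfa3 was 1.78 higher (SE 0.34, 3.43-fold), the 1 of 5 members with all adult arrays above all P7 arrays, against 27.2% of genes. Stfa2 was 1.27 higher (SE 0.62), Stfa1 0.63 (SE 0.39), Csta1 0.06 (SE 0.33) and Cstdc5 0.04 (SE 0.21), each with overlapping arrays. The comparison also sets whole esophagus against epithelium: all 4 stromal markers and 6 of 7 muscle markers fell in adults (limma, Benjamini-Hochberg), so age and dissection cannot be told apart. Scaled to equal spread the arrays gave a mean member difference of -0.25 rather than 0.76 and a Stfa3 difference of 0.81, and with each spot's own background these were -1.02 and -0.34. In that last setting the spread of all log ratios on adult replicates 1 and 3 fell from 0.455 and 0.465 to 0.0506 and 0.0826.

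Genes of the same biology were tested in the same fits. Of the 4 other stefins on the array, 3 rose between E15.5 and P0 (limma, Benjamini-Hochberg adjusted over all genes, in which 19.9% of genes were called): Csta2 by 4.70 (SE 0.44, adjusted p = 8.58e-05), Stfa2l1 by 3.37 (SE 0.62, adjusted p = 0.00456) and Cstb, the widely expressed cystatin B, by 1.43 (SE 0.25, adjusted p = 0.00362). Cstdc4 read 2.48 (SE 0.91, adjusted p = 0.0814). The list's median difference was 2.93.

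Of 11 proteases, the cysteine cathepsins that stefins inhibit and legumain, an asparaginyl protease inhibited by other cystatins, 4 rose: Ctsc, which activates serine proteases of granules, by 1.53, Ctso by 0.82, Ctsf by 0.81 and the lysosomal protease Ctsb by 0.65. The median of the 11 was 0.82. Without E15.5 replicate 1, P0 replicate 2 or P0 replicate 3, 1 of the 11 was called, and without P0 replicate 1 or P7 replicate 1, 2 were. Without both doubted embryonic arrays 4 were called again. Of 8 secreted and kininogen-type cystatins tested, Cst6, the cystatin of squamous epithelium, alone rose (0.94, SE 0.21, adjusted p = 0.0123).

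Of 14 cornified envelope genes tested 9 rose between E15.5 and P0, with a median of 2.03. The largest were Sprr3 (5.10, SE 0.24, adjusted p = 6.15e-07), a proline-rich envelope precursor, Cnfn (4.08), Sbsn (4.0) and Sprr1a (3.83). Tgm3, a transglutaminase that cross-links the envelope, rose by 2.97. Between P0 and P7 no gene of these 4 lists was called, while 2.42% of genes were, and between E11.5 and E15.5 none was either. Without P7 replicate 2, 1 of the other stefins was called between P0 and P7. Without both doubted embryonic arrays 8 envelope genes, 3 proteases and 1 cystatin were called between E11.5 and E15.5.

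Over the whole span from E11.5 to P7, with 30.4% of genes called, all 4 other stefins rose: Csta2 by 4.28, Stfa2l1 by 3.22, Cstdc4 by 2.72 and Cstb by 1.12. All 14 envelope genes tested rose too, Sprr3 by 5.44, Sprr1a by 4.66, Sbsn by 4.38 and Cnfn by 4.2 most. Of the 11 proteases 6 rose, Ctsh by 3.38, Ctsc by 2.12, Lgmn by 1.11 and Ctso by 1.03 most. Of the 8 other cystatins 4 rose, namely Ahsg (3.76), Kng1 (2.44), Fetub (2.29) and Cst6 (1.08). Leaving out E11.5 replicate 1 left 2 of the 11 proteases called, and P7 replicate 1 or 3 left 3. Leaving out E11.5 replicate 1 or 2 or P7 replicate 2 left 1 of the 8 cystatins called, and P7 replicate 3 left 2.

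From P7 to adulthood, where 43.1% of genes were called, Csta2 rose by 1.77 (SE 0.51, adjusted p = 0.027) and Cstb by 0.59 (SE 0.14, adjusted p = 0.014). Of the 4 other stefins 0 were called without adult replicate 2, 1 without adult replicate 1 or P7 replicate 1 or 3, and 4 without P7 replicate 2. Cst6 rose by 1.60 and Fetub, a fetuin-family cystatin, by 6.15, while Ahsg fell by 2.81. Of the 11 proteases 7 fell, among them Lgmn by 1.47 (adjusted p = 0.0038), Ctsk by 1.28, Ctsc by 1.19 and Ctso by 0.85, Ctsh fell by 0.78, and Ctsb rose by 0.45. Ctsl read -0.56 (adjusted p = 0.169). Without P7 replicate 1, 4 of the 11 were called rather than 8, and 5 without P7 replicate 3 or adult replicate 2. Of 15 envelope genes 9 rose, led by Sprr1b (3.58), Sbsn (1.96), Dmkn (1.94) and Tgm5 (1.76). Tgm3 read 0.50 (adjusted p = 0.163).

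The next question was whether the members depend on Nrf2, the transcription factor of the oxidative stress response, or on Keap1, which marks Nrf2 for degradation. At P7 none of the 5 stood apart in Nrf2-/-. Stfa1 read 8.21, 8.33 and 8.38 in Nrf2-/- at P7 and Cstdc5 9.42, 9.72 and 9.62, and Csta1 7.48, 7.55 and 7.33, each overlapping the wild-type arrays. Stfa2 read 3.19, 2.28 and 4.33 and Stfa3 6.61, 6.73 and 6.45. The differences from wild-type lay between -0.25 (Csta1, SE 0.25) and 0.17 (Stfa3, SE 0.45), with a mean of -0.06, which was 0.34 without wild-type replicate 2. No member separated, while 8.09% of genes were higher and 8.31% lower on all Nrf2-/- arrays, and limma called 3 genes (0.0159%).

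In Keap1-/- esophagus the log2 ratio was lower for 3 of the 5 genes, which may not be independent. The annotation lists the transcript of the Cstdc5 probe also for the Stfa1 probe and for the Csta1 probe A_51_P384894. Cstdc5 read 7.50, 7.44 and 7.87, against a lowest wild-type array of 9.55, a difference of -2.20 (SE 0.17, 4.59-fold). Stfa1 read 6.45, 7.08 and 7.41, a difference of -1.48 (SE 0.35, 2.79-fold). Csta1 read 6.13, 6.32 and 6.62, a difference of -1.34 (SE 0.25, 2.54-fold). For these 3 of 5 members every Keap1-/- array lay below every wild-type array, which held for 24.5% of genes. Stfa3 (5.12, 6.52 and 6.84, difference -0.27, SE 0.45) and Stfa2 (2.67, 3.43 and 3.73, difference 0.17, SE 0.63) overlapped wild-type.

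The 2 Csta1 probes disagreed. A_51_P384894, which shares its 45 bases with Cstdc5, differed by -2.25 (SE 0.32) between Keap1-/- and wild-type, and A_52_P686716, which does not, by -0.44 (SE 0.44) with overlapping arrays. The lower Csta1 ratio therefore rests on the probe that may also bind Cstdc5 transcripts.

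In the Cy5 channel alone the means of the 3 genes were lower in Keap1-/- by less, and their arrays overlapped wild-type. Replicate 1 was the lowest Keap1-/- array for each. The Stfa1 probe read 12.93, 15.01 and 14.9 in scaled Cy5 in Keap1-/- against 14.14, 15.51 and 13.96 in wild-type. The Cstdc5 probe read 14.84, 16.88 and 16.81 against 16.95, 17.64 and 16.87. The ratio difference of a probe is its Cy5 difference minus its Cy3 difference. For the Stfa1 probe the -1.48 was made of -0.25 in Cy5 (SE 0.83) and 1.23 in Cy3 (SE 0.44). For the Cstdc5 probe it was -0.98 in Cy5 (SE 0.71) and 1.22 in Cy3 (SE 0.64), and for A_51_P384894 -0.94 (SE 0.68) and 1.30 (SE 0.62). In Cy5 none of the 6 probes separated the groups (-0.98 to 0.49). In scaled Cy3, labelled as the same kind of reference RNA on every array, 3 of 6 probes were higher on all Keap1-/- arrays. They were the Stfa1 and Stfa2 probes and A_51_P384894, and the source of this was not tested. The scanner's signals before scaling did not show this on every array. For Stfa2 Cy3 was 45, 48 and 52 in Keap1-/- against 67, 89 and 61 in wild-type, so lower. The Cstdc5 probe gave 12831, 71652 and 60724 in Cy5 on the Keap1-/- arrays and 48811, 64271 and 59340 in wild-type. Its Cy3 was 168, 612 and 565 against 262, 279 and 234, with replicate 1 below wild-type and replicates 2 and 3 above. Median Cy3 over all probes was lower on these Keap1-/- arrays, at 140, 108 and 138 against 211, 215 and 219. Replicate 1 of Keap1-/- had the lowest Cy5 of the P7 arrays at the Cstdc5 probe, and without it the ratio difference of Cstdc5 was -2.15. The mean of the 5 ratio differences was -1.02, that without the high wild-type replicate 2 was -0.63, that in Cy5 alone -0.26, and with the arrays scaled to equal spread -1.57.

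**Figure D2:**
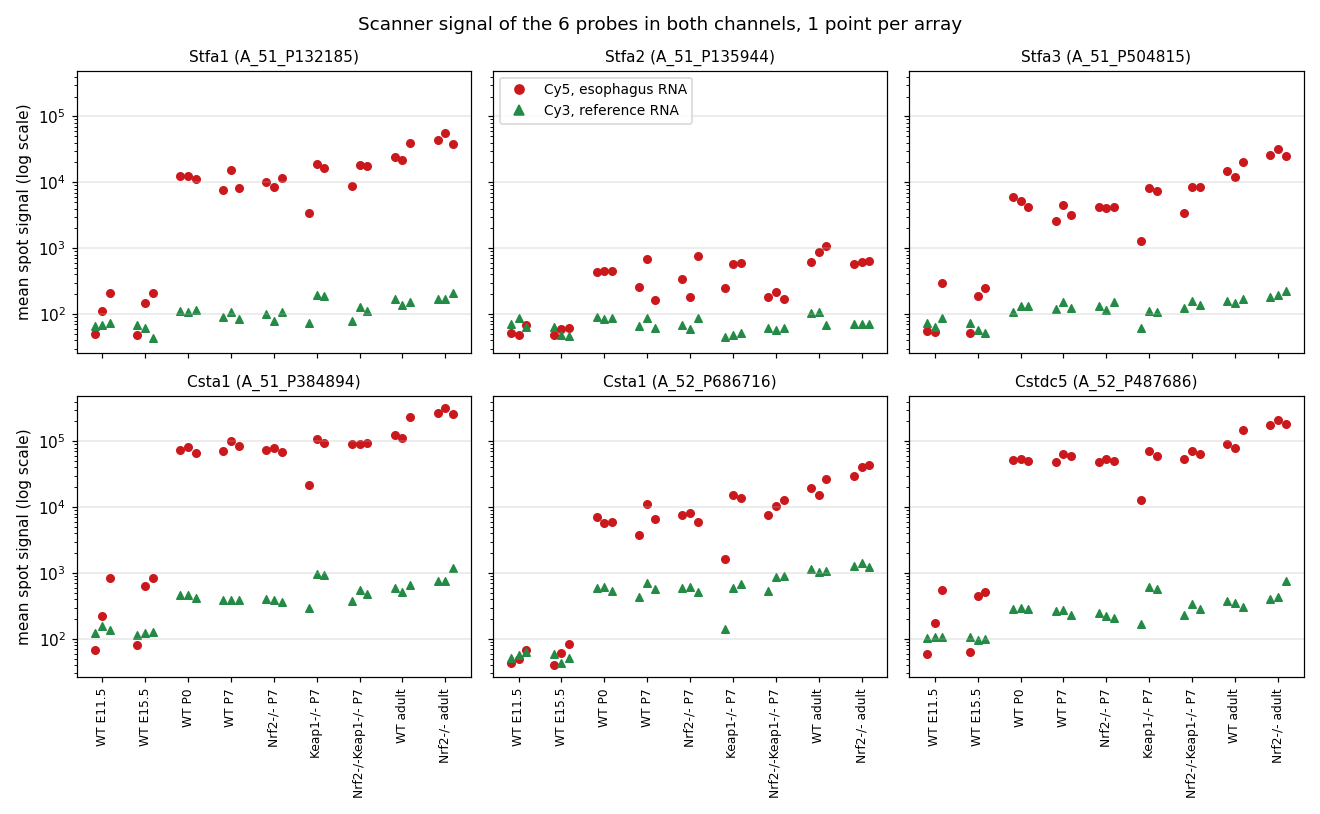
Mean spot signal of the 6 probes on a log scale in Cy5 (red circles, esophageal RNA) and Cy3 (green triangles, the common reference RNA), with 1 point per array. Cy3 was not level across groups although the labels give the same kind of reference RNA throughout, and at the Cstdc5 probe Keap1-/- replicates 2 and 3 reached 612 and 565 in Cy3 against 234 to 279 in wild-type at P7. Median Cy3 over all probes was 108 and 138 on those Keap1-/- arrays and 211 to 219 in wild-type at P7.

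Cy3 varied with Cy5 at these probes over the whole series. Over the 27 arrays, which share the kind of reference, the correlation of log2 Cy5 with log2 Cy3 was 0.81 for the Stfa1 probe, 0.39 for Stfa2, 0.88 for Stfa3, 0.91 and 0.98 for the Csta1 probes and 0.87 for Cstdc5, with a median of 0.43 over all probes. Cy3 signal spanned 2.42-fold to 33.5-fold across arrays. Neither its part in the differences nor its source was tested. No member spot was saturated, and 23 of 162 member spots (14.2%) carried the scanner's outlier mark and were kept.

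All 3 Keap1-/- arrays sat alone on 1 slide and in 1 scan, and their files came from a later version of the extraction software than those of the other P7 arrays, so genotype, slide, scan and software cannot be told apart. Other cell types differed too in Keap1-/- esophagus: the 3 markers of simple epithelium all fell, with a mean level of -3.93 to -3.63 against -0.01 to 1.06, and all 4 stromal markers fell, with a mean of 1.22 to 1.85 against 2.79 to 3.24. Of 10 defining neutrophil and leukocyte genes tested 1 rose and 3 fell, with a mean level of 0 to 0.57 against 0.61 to 1.6, and Elane and Prtn3 were not above background. Of 7 muscle markers 2 rose and 3 fell, and 1 of 2 red cell markers rose. Their part in the members' lower ratios was not tested.

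With Nrf2 also deleted, 4 of the 5 genes overlapped wild-type. In Nrf2-/-Keap1-/- esophagus Stfa1 read 8.08, 8.53 and 8.89, Csta1 7.37, 7.00 and 7.42, and Stfa3 6.18, 7.13 and 7.52. Cstdc5 read 9.31, 9.25 and 9.48, a difference of -0.46 from wild-type (SE 0.17), and was the 1 of 5 members with all arrays lower, against 9.98% of genes. All 3 of these Cstdc5 spots carried the scanner's outlier mark, so without marked spots the gene has no value in this genotype. Stfa2 read 2.13, 2.38 and 2.06, a difference of -0.91 (SE 0.63) with overlap, and its Cy3 spot was well above background on none of these arrays. The mean of the 5 differences was -0.25, and with the arrays scaled to equal spread -1.02, where Stfa3 turned from 0.51 to -0.2. From the processed signals of the scanner software Stfa2 turned to 0.16. Limma called 81 of 18840 genes in this comparison (0.43%).

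Keap1-/- was lower than Nrf2-/-Keap1-/- on every array for Cstdc5 (-1.74, SE 0.17), Stfa1 (-1.52, SE 0.35) and Csta1 (-0.91, SE 0.25), 3 of 5 members against 26.6% of genes. For Cstdc5 this again rests on outlier-marked spots in Nrf2-/-Keap1-/-. The Csta1 probe A_52_P686716 on its own overlapped (4.72 to 5.45 against 5.12 to 5.53). Stfa2 was higher on every array (1.09, SE 0.63), 1 of 5 against 22% of genes, and it was higher in Cy5 alone as well (1.60, SE 0.37). Stfa3 overlapped (-0.78, SE 0.45). From the processed signals of the scanner software the Stfa2 difference was -0.06, and in Cy5 alone the mean of the 5 differences was 0.02 rather than -0.77. Between Nrf2-/-Keap1-/- and Nrf2-/- no member separated (-1.08 to 0.34), while 8.21% of genes were higher and 6.13% lower on all arrays. These comparisons and those with wild-type share groups.

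**Figure D3:**
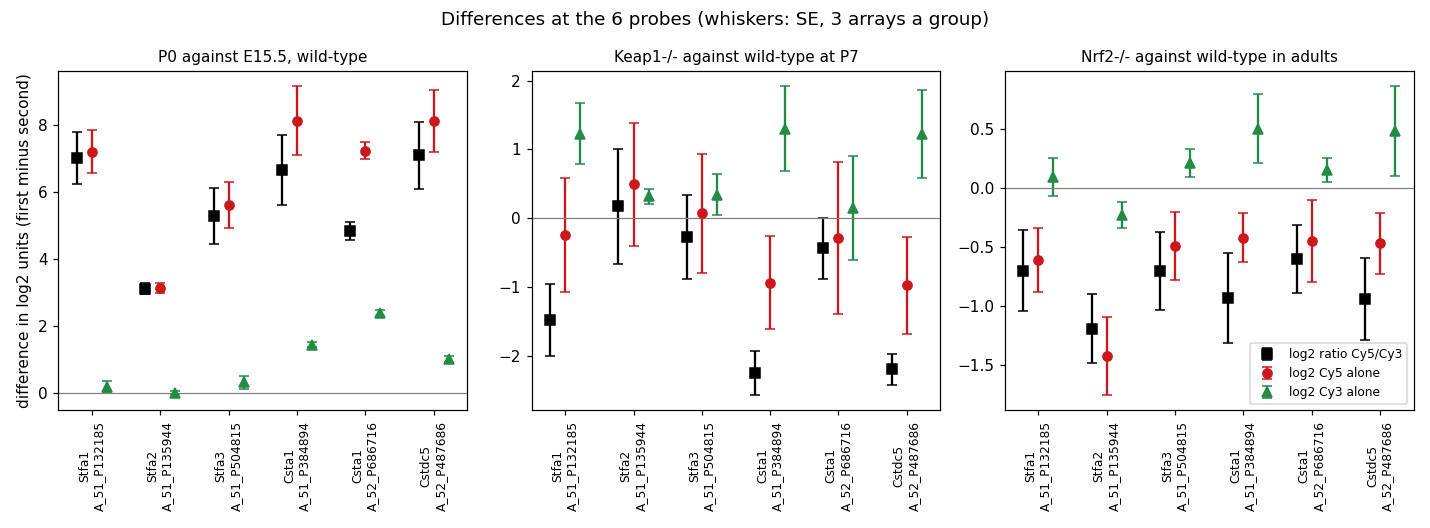
Difference between groups at each of the 6 probes for the log2 ratio (black squares), log2 Cy5 alone (red circles) and log2 Cy3 alone (green triangles), with whiskers of 1 SE and 3 arrays per group. At P0 against E15.5 ratio and Cy5 both lie far above 0, from 3.13 upward, whereas in Keap1-/- against wild-type the Cy5 differences lie between -0.98 and 0.49 and Cy3 lies between 0.15 and 1.30.

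Around the members, Keap1-/- esophagus differed widely, with 33.5% of genes called. Of the 4 other stefins only Cstb was called, and it rose by 0.67 (SE 0.14, limma, Benjamini-Hochberg adjusted p = 0.00524). Csta2 read -0.78 (adjusted p = 0.423), Stfa2l1 -0.36 and Cstdc4 -1.43, neither called. Of 9 other cystatins, Cst6 rose by 1.64 (SE 0.23, adjusted p = 0.000435), Fetub by 4.87 (SE 1.20) and the secreted inhibitor Cst3 by 1.23, and Ahsg fell by 2.71.

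Of the 11 proteases 6 fell in Keap1-/-: Ctso by 1.40 (SE 0.13, adjusted p = 2.38e-05), Ctsh by 1.38, Ctsc by 1.28 and Ctss by 1.23 most, Ctsl by 0.88 (adjusted p = 0.0263). Ctsb read 0.07 and Lgmn 0.16, neither called. Without wild-type replicate 3, 3 of the 11 were called. Of 15 envelope genes 5 rose, among them Sprr1b (1.85), Dmkn (1.75), Sbsn (1.32) and Tgm3 (0.88). The 1 that fell was involucrin (Ivl), by 0.97. In Keap1-/- against Nrf2-/-Keap1-/-, where 33.5% of genes were called as well, Cstb rose by 0.85 (2 of the 4 other stefins were called without Nrf2-/-Keap1-/- replicate 1) and the proteases fell in 6 of 11, Ctsk by 1.5, Ctss by 1.37, Ctso by 1.26 and Ctsh by 1.19. Fetub rose by 5.52, Cst6 by 1.64 and Cst3 by 0.99, and Ahsg fell by 2.32. Of the envelope genes 9 rose and 1 fell, Sprr1b (1.85), Sbsn (1.62), Dmkn (1.56) and Ivl (-1.39) most, and Tgm3 by 0.95. None of the genes of these 4 lists was called in Nrf2-/- or in Nrf2-/-Keap1-/- against wild-type at P7.

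In adult epithelium all 5 genes read lower in Nrf2-/-. Stfa2 read 3.16, 3.1 and 3.3, a difference of -1.19 (SE 0.23, 2.28-fold). Its Cy3 spot was well above background on 0 of 3 Nrf2-/- arrays and on 2 of 3 wild-type arrays. Cstdc5 read 9.33, 9.11 and 8.29 (-0.94, SE 0.27), Csta1 7.13, 6.98 and 6.89 (-0.76, SE 0.21) and Stfa1 8.59, 8.58 and 7.99 (-0.70, SE 0.27). For these 4 of 5 members all Nrf2-/- arrays were below all wild-type arrays, which held for 9.28% of genes. The Csta1 probe A_52_P686716 on its own overlapped (5.09 to 5.63 against 5.47 to 6.28). Stfa3 read 7.71, 7.53 and 7.27 (-0.70, SE 0.26) and overlapped. The members' median difference was -0.76 against 0.02 for all genes.

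In Cy5 alone the adult differences ran from -1.42 to -0.42, and 3 of 6 probes were lower on all Nrf2-/- arrays. The scanner's own Cy5 signals went the other way before scaling, with 38644 to 55092 for the Stfa1 probe in Nrf2-/- against 21893 to 38884 in wild-type, on arrays whose median Cy5 was also higher (188 to 216 against 80.6 to 159). The difference depended on the scaling. Median centring without the loess step gave a mean of the 5 of -0.19 rather than -0.86, equal spread between arrays gave -1.97, and each spot's own background gave 0.92, a turn of direction. That last setting cut the spread of all log ratios on wild-type replicates 1 and 3, from 0.455 and 0.465 to 0.0506 and 0.0826. The spread of the Nrf2-/- arrays stayed at 0.507, 0.523 and 0.561. The part of this in the turn was not tested. The Nrf2-/- arrays and wild-type replicate 3 came from the later software version and the other 2 wild-type arrays from the earlier. Only scan 3 held both genotypes, all in the later version, 2 Nrf2-/- arrays against 1 wild-type array, and within it the differences were -1.12 for Stfa2, -0.42 for Cstdc5, -0.26 for Csta1, -0.06 for Stfa1 and 0 for Stfa3.

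The difference between Nrf2-/- and wild-type in adults minus that at P7 was -1.36 for Stfa2 (SE 0.87), -0.87 for Stfa3 (SE 0.41), -0.73 for Cstdc5 (SE 0.36), -0.55 for Stfa1 (SE 0.48) and -0.51 for Csta1 (SE 0.38). These are descriptions. Their mean was -0.80, and it was -0.22 with median centring, -0.32 with scan as a block, -1.58 at equal spread and turned to 0.98 with each spot's own background. In that last setting adult wild-type replicates 1 and 3 had the reduced spread given above. Of all 19161 genes tested 0.0835% passed for this term.

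Beside the members, in adult Nrf2-/- epithelium no other stefin, protease or envelope gene was called, while 0.437% of genes were. Cstb read 0.06, Cst6 0.02, Ctsl 0.26, Ctsb 0.18, Ctsh 0.57, Lgmn 0.51 and Tgm3 -0.06. The kininogen gene Kng1 fell by 1.29 (SE 0.13, adjusted p = 0.00972), and 8 of 12 Nrf2 targets fell, Nqo1 by 3.41, Akr1b8 by 2.75, Gclc by 2.27 and Gsta3 by 2.09 most. Kng1 was not called without wild-type replicate 1 or 3 or Nrf2-/- replicate 2. Of the 12 targets 4 were called without wild-type replicate 1 or 2 or Nrf2-/- replicate 2, and 5 without Nrf2-/- replicate 3.

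**Figure D4:**
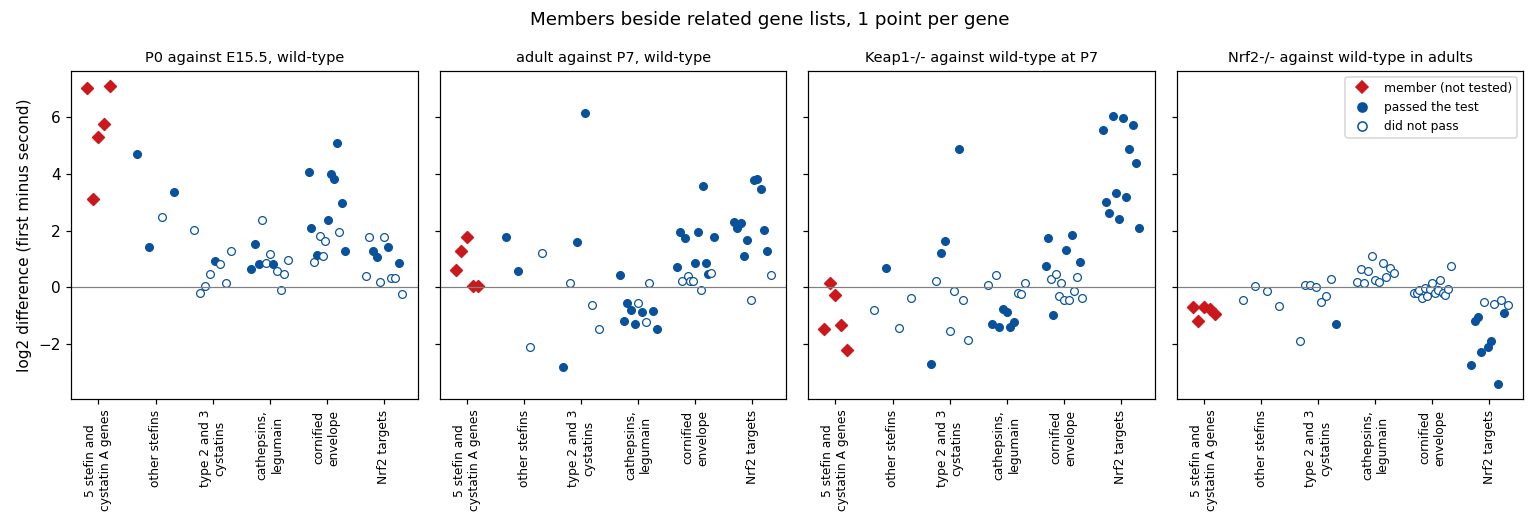
Log2 differences of the 5 members (red diamonds, not tested) and of 5 related gene lists (blue circles, filled where limma's adjusted p was 0.05 or lower) in 4 comparisons, with 1 point per gene. The members span 3.13 to 7.11 at P0 against E15.5 and -2.20 to 0.17 in Keap1-/- against wild-type, where the 12 Nrf2 targets all lie above 0.

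The order of the 9 groups was alike for the 5 genes at its ends and differed in between. Wild-type P7, for example, had rank 2 for Csta1 and Cstdc5, rank 3 for Stfa1 and rank 6 for Stfa2 and Stfa3. Adult wild-type stood first for each, and both embryonic groups last, below all other arrays. For Stfa1, Stfa3, Csta1 and Cstdc5 the Keap1-/- group was seventh of 9, with no overlap to the embryonic group below it, and for Stfa1, Csta1 and Cstdc5 none to the group above it. Neighbours between the first and the sixth place overlapped for those 4 genes. For Stfa2 adult wild-type (lowest array 3.95) was clear of P0 (highest 3.56), and Nrf2-/-Keap1-/- came seventh.

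Over the 9 group means the members correlated with each other at 0.919 (Stfa2 with Cstdc5) to 0.998 (Csta1 with Cstdc5), values that share arrays and reference and, for the latter pair, probe sequence. Among 1724 genes well above background on 9 or more arrays, with a spread of group means of 1 or more, those most like the members' mean were Clu, a secreted chaperone (0.992), Slc46a2, a solute carrier (0.991), the stefin Stfa2l1 (0.991), the homeodomain gene Hopx (0.990) and the membrane protease Tmprss4 (0.989). By single member they were Clu and Ccl6 for Stfa1 (0.996 and 0.993), Stap2 and Mst1 for Stfa2 (0.965 and 0.963), Stfa2l1 and Defb1 for Stfa3 (0.995 and 0.994), Hopx and Slc46a2 for Csta1 (0.995 and 0.991), and Clu and Ccl6 for Cstdc5 (0.992 and 0.991). With 9 points set mainly by the step at birth, such values describe a shared course only.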

How the data were processed

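The files were scanner output of 27 two-colour Agilent arrays in 9 groups of 3. Spot intensities, and on the same rows the log10 ratio of Cy5 to Cy3, were deposited as made by Agilent Feature Extraction (version 9.1 in the submitters' processing notes; per the file headers 10.7.3.1 for all Keap1-/- and adult Nrf2-/- arrays and adult wild-type replicate 3, and 10.5.1.1 for the others). Precision was limited by the 3 arrays per group. Mean signals and median backgrounds were corrected with normexp (offset 50) and each array was loess-normalised in R 4.3.3 with limma 3.58.1, giving log2 ratios, since the deposited intensities are not normalised between arrays. Spots carrying the outlier mark were kept. A local background over 5 times the array median was set to that median and the spot left out of means. Probes of a gene were averaged, and 26918 of 41174 probes were named through their RefSeq accession (GRCm38.p6). Genes whose Cy5 signal passed the scanner's background test on 3 or more arrays, with 2 or more values per group, were tested with limma and Benjamini-Hochberg adjustment and called at an adjusted p of 0.05 or lower. Wild-type ages up to P7, P7 genotypes, and each adult comparison were fitted separately. Cy5 and Cy3 levels alone came from the Aquantile-scaled channels and are open to dye bias, as no dye swap was made. The lower bounds for Stfa2 set its bright group's mean against, per embryonic array, the higher of its own signal and the lowest signal among probes well above background. The 11 slides and 4 scans and the replicate numbers were tried as blocks. Same-numbered arrays deviated together, with each of the 3 correlations above 0.1, in 3 of 17 pairs of groups: E11.5 with P7, P0 with P7, and Keap1-/- with Nrf2-/-Keap1-/-. The labels give no source for such a pairing. The scripts were tested on simulated data.

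The members and gene lists were chosen with earlier results of these data known. Named were all members, Nfe2l2 and Keap1, of each list all called genes where 5 or fewer were called and otherwise the 4 largest, Cst6, Ctsl, Ctsb, Ctsh, Lgmn, Tgm3 and Cstb in the Keap1-/- and adult comparisons, and the genes most correlated with the members' group means. Promoter motifs were searched on both strands.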

Additional observations from a re-analysis of the deposited data

Results flagged for a closer look

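Akr1b8, an aldo-keto reductase and Nrf2 target, was the only gene of the lists whose response to loss of Nrf2 differed between ages by the interaction term. The adult difference minus the P7 difference was -2.71 (SE 0.27, limma, Benjamini-Hochberg adjusted p = 0.00352). In adults it fell by 2.75 (SE 0.13, adjusted p = 0.000442), and at P7 it read -0.03 (adjusted p = 0.967). No listed stefin or cystatin outside the members passed this test, and the members were described without a test.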

How the results depend on the processing

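Differences of the 5 members are given as means of their log2 differences, and called genes as counts. Median centring without loess gave mean differences of 4.62 at P0 against E15.5, 4.62 at P7 against E11.5, -0.19 in adult Nrf2-/- and -0.22 for the Nrf2 effect in adults minus that at P7, with 4262 called between P7 and adults, 20 in adult Nrf2-/- and 30 for that interaction. Equal spread gave -0.25 (adult against P7), -1.02 (Nrf2-/-Keap1-/- against wild-type, 124 called), -0.62 (Nrf2-/-Keap1-/- against Nrf2-/-), -1.97 (adult Nrf2-/-) and -1.58 (interaction, 9 called). With each spot's own background the adult Nrf2-/- mean reversed to 0.92 (Stfa1 1.42, Stfa2 1, Csta1 0.18, Cstdc5 0.59), Stfa3 reversed to -0.34 in adult against P7, and the means were 0.77 (P7 against P0), -1.02 (adult against P7) and 0.98 (interaction), with 1720 called at P0, 239 at P7 against P0, 4152 in adult against P7, 1644 in adult Nrf2-/- and 1097 for the interaction. On 5 arrays that setting brought the spread of all log ratios to 0.0506 to 0.17, against 0.353 to 0.561 otherwise. They were wild-type E11.5 replicate 1, E15.5 replicate 3, P0 replicate 1 and adult replicates 1 and 3. The scanner's processed signals and the deposited ratios both gave -1.22 (Keap1-/- against Nrf2-/-Keap1-/-, where Stfa2 reversed to -0.06) and 0.01 (Nrf2-/-Keap1-/- against Nrf2-/-, 1 called), with 4 called in Nrf2-/-Keap1-/- and 34 and 33 in adult Nrf2-/-, and the processed signals 5 in Nrf2-/- at P7. Cy5 alone, an alternative added after seeing the data, gave 0.02 (Keap1-/- against Nrf2-/-Keap1-/-, reversed) and -0.26 (Keap1-/-), with 308 called in Nrf2-/-Keap1-/-, 181 in adult Nrf2-/- and 30 for the interaction.

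Among called counts only, a single fit of all 27 arrays gave 922 (P7 against P0), 6 (Nrf2-/- at P7), 184 (Nrf2-/-Keap1-/-), 4 (Nrf2-/-Keap1-/- against Nrf2-/-), 499 (adult Nrf2-/-) and 49 (interaction). In Nrf2-/-Keap1-/-, leaving the background in gave 47, and asking both channels to be above background on 60% of arrays gave 37. Without outlier-marked spots 10 genes were called for the interaction, 1 in Nrf2-/-Keap1-/- against Nrf2-/-, and 81 gene and comparison pairs of the lists. With slide as a random block 310 were called at P7 against P0, 490 in Nrf2-/-Keap1-/-, 23 in adult Nrf2-/- and 5 for the interaction. With slide as a fixed block the means were -1.11 (E15.5 against E11.5) and -0.43 (Nrf2-/-Keap1-/- against Nrf2-/-, 4 called), and with scan -0.37 (adult Nrf2-/-, 40 called) and -0.32 (interaction). Of 51 same-numbered pairs of arrays 18 correlated above 0.1 (-0.45 to 0.65) and 23 best with their own number. With the number as a replicate block 20 were called in adult Nrf2-/- and 1 in Nrf2-/-Keap1-/- against Nrf2-/-. In the 3 comparisons whose numbers paired the arrays it gave 469 (P7 against P0), 6031 (P7 against E11.5) and 6087 (Keap1-/- against Nrf2-/-Keap1-/-), and no other count moved by over 1.5 times. Without E11.5 replicate 3 and E15.5 replicate 1 there were 2655 calls and a mean of 1.42 (E15.5 against E11.5) 1065 calls at P7 against P0 and 7803 at P7 against E11.5. Where no cause is given, it was not tested.

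Leaving out 1 array at a time moved calls to 0 to 1 (E15.5 against E11.5), 2184 to 4302 (P0 against E15.5, lowest without P0 replicate 2), 199 to 574 (P7 against P0, lowest without P0 replicate 3), 3773 to 6752 (P7 against E11.5, lowest without E11.5 replicate 1), 5478 to 7501 (adult against P7), 2 to 8 (Nrf2-/- at P7, highest without its replicate 2), 4305 to 6459 (Keap1-/-), 5 to 269 (Nrf2-/-Keap1-/-, lowest without its replicate 3 and highest without wild-type P7 replicate 3), 4305 to 6940 (Keap1-/- against Nrf2-/-Keap1-/-), 0 to 1 (Nrf2-/-Keap1-/- against Nrf2-/-), 14 to 182 (adult Nrf2-/-, lowest without its replicate 2 and highest without wild-type replicate 3) and 3 to 42 (interaction, lowest without adult Nrf2-/- replicate 2 and highest without adult wild-type replicate 1). List calls ran from 133 to 159. The members' mean difference between E15.5 and E11.5 ran from -0.29 to 0.87 and that in Nrf2-/- at P7 from -0.29 to 0.34. None of their mean differences moved by more than the spread between replicates.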
